A study of Mus musculus with 20 samples.

Results

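The comparison described here is that of mature miRNAs in cultured mouse cortical neurons that lack the circular RNA ciRS-7 with those in wild-type neurons, both kept in normal oxygen. Its members are the 10 normoxic libraries of the study's 20, 5 wild type and 5 knockout, and all 1481 miRNA features of the deposited table that sets these groups side by side. The other 10 libraries came from neurons after oxygen-glucose deprivation (OGD), a culture model of ischaemia with 1% O2 and no added glucose or pyruvate.

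The neurons were taken from cortices of mouse embryos at embryonic day 15 (E15) and cultured for 7 days in Neurobasal medium with B27 supplement. Before harvest they spent 12 h in normoxia (37 °C, 5% CO2) in medium with 25 mM glucose and 0.2 mM pyruvate. The labels give the genotypes as WT and KO, and the strain of both as C57BL/6N-Cdr1asem1Nikr. Cdr1as is another name of ciRS-7, so the strain name does not separate the groups and the genotype label does. The 5 libraries of a group are called biological replicates in the series' design, which does not say whether each is a separate litter or culture, so p-values measure the spread between these samples. ciRS-7 itself is not a mature miRNA and is not among the features, so the genotype labels could not be checked against the deleted RNA. In RNA from whole cultures, fewer cells of a type and less RNA per cell cannot be told apart.

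ciRS-7 is a circular RNA of neurons that is made from the strand opposite the Cdr1 gene and carries many sites for the miR-7 family. It also carries a site that pairs almost fully with miR-671, a miRNA that directs its cutting. A miRNA precursor yields a guide strand, which is loaded into Argonaute and recognises targets through its seed (bases 2 to 8), and a passenger strand, which is mostly discarded. Extensive pairing with a target can lead to the decay of a guide strand, while RNAs with seed sites alone can bind it without decay.

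The results turn on 7 mature forms, the guide and passenger strands of the miR-7 genes and of miR-671. Their RefSeq sequences (build GRCm38.p6, 5′ to 3′, seed in capitals) are shown because the guide strands of miR-7a and miR-7b are nearly alike, whereas each passenger strand comes from its own precursor:
miR-7a-5p: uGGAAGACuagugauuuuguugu
miR-7b-5p: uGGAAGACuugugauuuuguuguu
miR-7a-1-3p: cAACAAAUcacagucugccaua
miR-7a-2-3p: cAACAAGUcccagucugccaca
miR-7b-3p: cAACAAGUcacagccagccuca
miR-671-5p: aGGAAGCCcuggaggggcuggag
miR-671-3p: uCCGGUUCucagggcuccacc
Both miR-7 guide strands have the same seed, and no other feature with a RefSeq sequence has it (1248 of the 1481 features had one). Over their shared 23 bases the single substitution is A10U, with miR-7a-5p given first and positions counted from its 5′ end. How reads were divided between these guide strands is not given in the sources used here, so the split between them is uncertain. The miR-7a guide strand is made from 2 precursors. Mir7-1 lies in an intron of Hnrnpk (chr13:58392779-58392886, minus strand) and yields miR-7a-1-3p as its passenger strand. Mir7-2 lies outside annotated genes (chr7:78888277-78888373, plus strand) and yields miR-7a-2-3p. The precursor of miR-7b lies outside annotated genes (chr17:56242988-56243098, plus strand), and that of miR-671 in an exon of Chpf2 (chr5:24592114-24592211, plus strand).

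The RNA that the knockout neurons lack is annotated as exon 6 of 7 of a transcript that RefSeq calls Cdr1os (synonym Cdr1as; chrX:61183248-61186174, plus strand, GRCm38), 2927 bases long and opposite to Cdr1 (chrX:61184005-61185558). That exon holds 123 copies of GTCTTCC, the match to the miR-7 seed, on its sense strand, 0 on the other strand and 0 in the transcript's other exons. Of 25518 annotated transcripts at least as long, 23.9% hold the motif in their first 2927 bases, and 1 holds 10 or more copies there. The exon has 1 match to the miR-671-5p seed, GGCTTCC. These sites are shown to compare how far pairing extends beyond the seed match, which is in capitals:
miR-7 site, most paired (chrX:61183571-61183593): tccagaaaaatccaaGTCTTCCa
miR-7 site, first in the exon (chrX:61183258-61183280): ggtgccagtaccaagGTCTTCCa
miR-671 site (chrX:61186029-61186051): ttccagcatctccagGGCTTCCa
Laid against miR-7a-5p without gaps, the 123 windows paired at 8 to 16 of 23 bases (median 13). The miR-671 site paired with miR-671-5p at 19 of 23. The window base opposite position 10 was A in 102 of the 123, which pairs with the U of miR-7b-5p, and T in 2, which pairs with the A of miR-7a-5p. A match is a description of letters and no measure of binding.

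Reads assigned to miRNAs totalled 2492065 to 9117862 per wild-type library (median 8208163) and 5884616 to 12477032 per knockout library (median 8854518). Levels are given in CPM, which scale reads by a library size that includes the authors' library factor, from reads recovered from the deposited values. A level of 3 reads, taken as the floor of detection, corresponded to 0.249 to 1.13 CPM. That floor covers counting error only, since the labels mention no molecular identifiers. Of the 1481 features, 787 (53.1%) had a read in every library, and 403 reached an average log2(CPM + 0.5) of 3 over the libraries. Wild-type replicate 5 stood apart from the other libraries. It was the shallowest, lay at 10.8 on the first principal component (60.5% of the variance) against -4.50 to 3.30 for the other 9, and was the highest or lowest of its group for 259 of the 403 features (79 to 205 for each other library). Without it, the median SD between wild-type replicates over these features went from 0.22 to 0.16 on the log2 scale, beside 0.15 in knockout. Where leaving it out moved a value by much, that value is given too.

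Loss of ciRS-7 was accompanied by lower mean levels of both miR-7 guide strands, while their passenger strands and miR-671 did not differ beyond the spread between libraries. The difference of miR-7a-5p was the lowest of the 403 features and that of miR-7b-5p the third lowest (the lowest pair without wild-type replicate 5), yet neither passed the correction over all features. The ratio of miR-7a-5p to each of its passenger strands within a library passed an exact test, being lower in every knockout library than in any wild-type library, but these ratios were chosen with the lower level of miR-7a-5p known.

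The level of miR-7a-5p, the rank 39 feature by abundance, was 3419, 4267, 3789, 4387 and 2979.5 CPM in wild-type replicates 1 to 5. In knockout replicates 1 to 5 it was 2066, 2704, 1773, 3282 and 2564 CPM. Thus 4 of 5 knockout libraries lay below the lowest wild-type library, which was replicate 5, and knockout replicate 4 lay above it, so the groups overlapped. The means were 3768 ± 586 and 2478 ± 585 CPM (SD, n = 5), a log2 difference of -0.62 (SE 0.15, 95% interval -0.96 to -0.29). In limma with Benjamini-Hochberg adjustment over 1481 features, its p was 0.0013 before and 0.838 after adjustment. An exact two-sided permutation test of the CPM values gave p = 0.016, where the smallest p that 5 against 5 allows is 0.0079. The difference was -0.70 without wild-type replicate 5 (limma adjusted p 0.557).

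The level of miR-7b-5p, the more abundant guide strand at rank 17, was 13151, 12949, 11069, 12363 and 10203 CPM in wild-type replicates 1 to 5. In knockout it was 8905, 11442, 8665, 10345 and 8211 CPM. The groups overlapped: 3 of 5 knockout libraries lay below the lowest wild-type library, again replicate 5, while knockout replicates 2 and 4 lay within the wild-type range. The log2 difference was -0.33 (SE 0.11, 95% interval -0.56 to -0.10; limma p 0.0079, adjusted p 0.984; exact permutation p 0.040). It was -0.39 without wild-type replicate 5. Quantile normalization gave the smallest difference, -0.18. The summed level of both guide strands, which does not depend on how reads were divided between them, was 13183 to 17216 CPM in wild-type and 10438 to 14146 CPM in knockout libraries, with means of 15715 ± 1673 and 11991 ± 1750 (SD, n = 5).

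**Figure D1:**
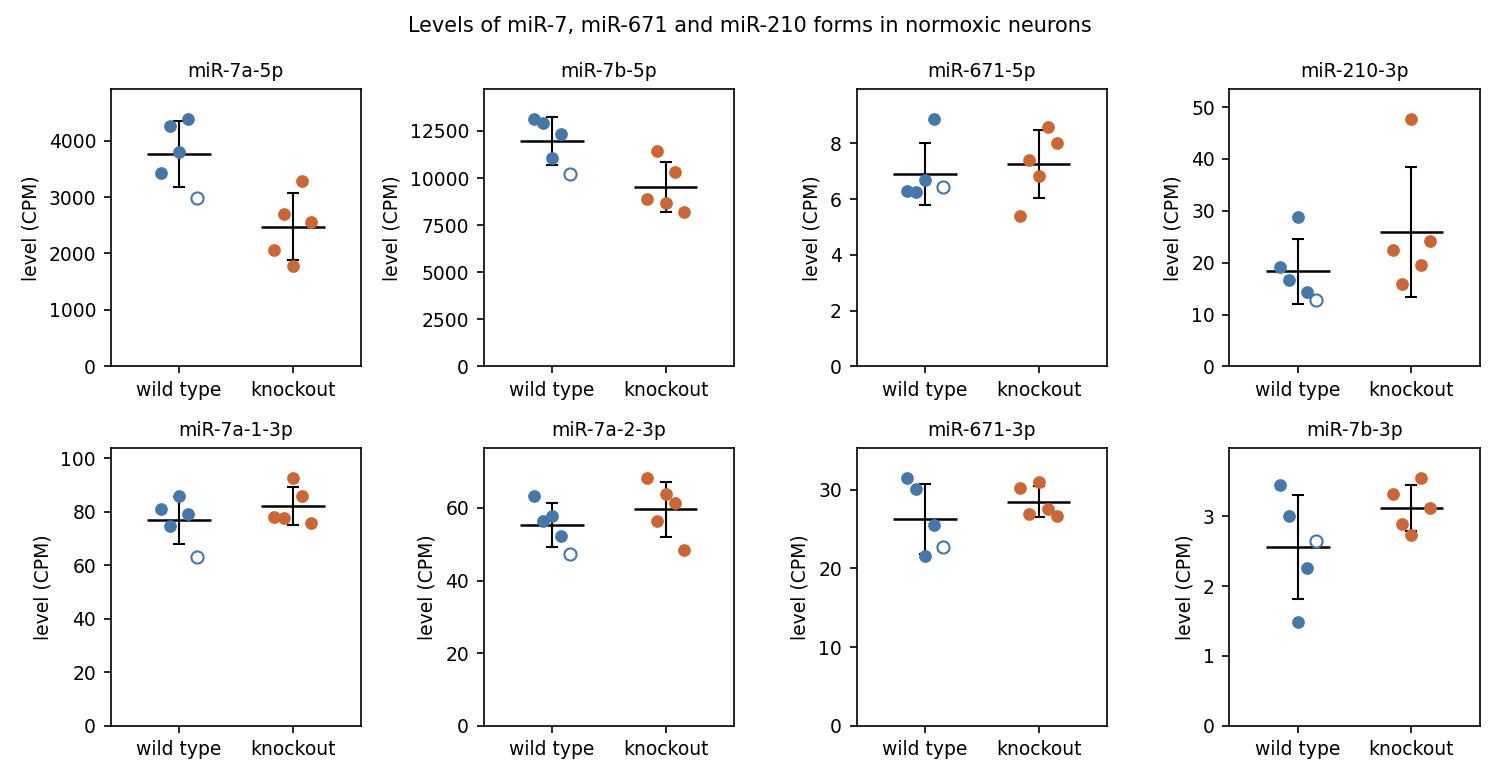
Levels in CPM (vertical axis, from 0) of 8 mature miRNAs in the 5 wild-type (blue) and 5 knockout (orange) normoxic libraries; each point is a library, the open circle is wild-type replicate 5, and bars give the mean ± SD. Most knockout points lie below the wild-type points for miR-7a-5p and miR-7b-5p, while the groups overlap widely for the passenger strands and miR-671, and knockout replicate 3 stands alone at 47.7 CPM for miR-210-3p.

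The passenger strands of the same precursors did not share the direction of the guide strands. The level of miR-7a-1-3p was 81.0, 74.5, 85.9, 79.2 and 63.1 CPM in wild-type and, in the same order, 77.9, 77.6, 92.6, 85.8 and 75.8 CPM in knockout replicates. That of miR-7a-2-3p was 63.2, 56.5, 57.7, 52.1 and 47.2 CPM in wild-type replicates, against 68.3, 56.4, 63.8, 61.5 and 48.4 CPM without ciRS-7. Wild-type replicate 5 was the lowest library for both, and the groups overlapped. The log2 differences were 0.10 for miR-7a-1-3p (95% interval -0.13 to 0.32) and 0.10 for miR-7a-2-3p (-0.15 to 0.36), with limma adjusted p of 0.984 for each. They were 0.03 and 0.05 without wild-type replicate 5. The passenger strand of miR-7b was rare, at 7 to 40 reads per library. Its mean was 2.57 ± 0.746 CPM with ciRS-7 and 3.12 ± 0.330 CPM without it (SD, n = 5), a log2 difference of 0.27 (95% interval -0.20 to 0.74). With a library left out, that difference ran from 0.12 to 0.37.

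Guide and passenger strands were also compared within each library, as the ratio of their values of CPM + 0.5. The added 0.5 CPM makes ratios of rare forms differ from plain ratios of CPM. The ratio of miR-7a-5p to miR-7a-1-3p was 42.0, 56.9, 43.8, 55.1 and 46.9 in wild-type replicates 1 to 5, and 26.4, 34.6, 19.0, 38.0 and 33.6 in knockout replicates 1 to 5. Each of the 5 knockout libraries lay below the lowest wild-type library. The log2 difference of the ratio was -0.72, with an exact two-sided permutation p of 0.0079, the smallest this design allows, and a Benjamini-Hochberg adjusted p of 0.0198 over the 5 ratios computed. With miR-7a-2-3p as the passenger strand, the ratio was 53.6, 74.9, 65.1, 83.3 and 62.4 in wild type and 30.1, 47.5, 27.6, 52.9 and 52.5 in knockout. These groups did not overlap either, although knockout replicate 4 came close to wild-type replicate 1. The log2 difference was -0.73 (exact permutation p 0.0079, adjusted p 0.0198). Both ratios share the level of miR-7a-5p, so they are no independent pair of results. The differences were -0.73 and -0.75 without wild-type replicate 5. After thinning to equal depth they were -0.67 and -0.83, and the adjusted p was again 0.0198. Groups that do not overlap stay apart when any library is left out, so the leave-one-out tests could not have ended these calls and are no sign of stability. The sizes of the differences then ran from -0.81 to -0.56 and from -0.82 to -0.59.

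The remaining ratios were less clear. For miR-7b-5p over the rare miR-7b-3p, the ratio of CPM + 0.5 was 3245 to 5574 in wild-type and 2271 to 3377 in knockout libraries, and 4 of 5 knockout libraries lay below the lowest wild-type library. Its log2 difference of -0.61 passed with all libraries (exact permutation p 0.0238, adjusted p 0.0397), and was -0.65 with 0.1 CPM added and -0.51 with 2 CPM. The call was lost when libraries were thinned to equal depth (-0.40, adjusted p 0.288) and in all but 1 of the sets that left out a library, among them that without wild-type replicate 5, where the difference was -0.68 (adjusted p 0.0529). Fewer libraries also raise the smallest p that the exact test can give. For miR-7a-5p over miR-7b-5p, the ratio was 0.260 to 0.355 in wild type and 0.205 to 0.317 in knockout, with 3 of 5 knockout libraries below the lowest wild-type library. That log2 difference, -0.29, did not pass (exact permutation p 0.0794, adjusted p 0.0992), so a larger effect on the miR-7a than on the miR-7b guide strand was not shown.

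**Figure D2:**
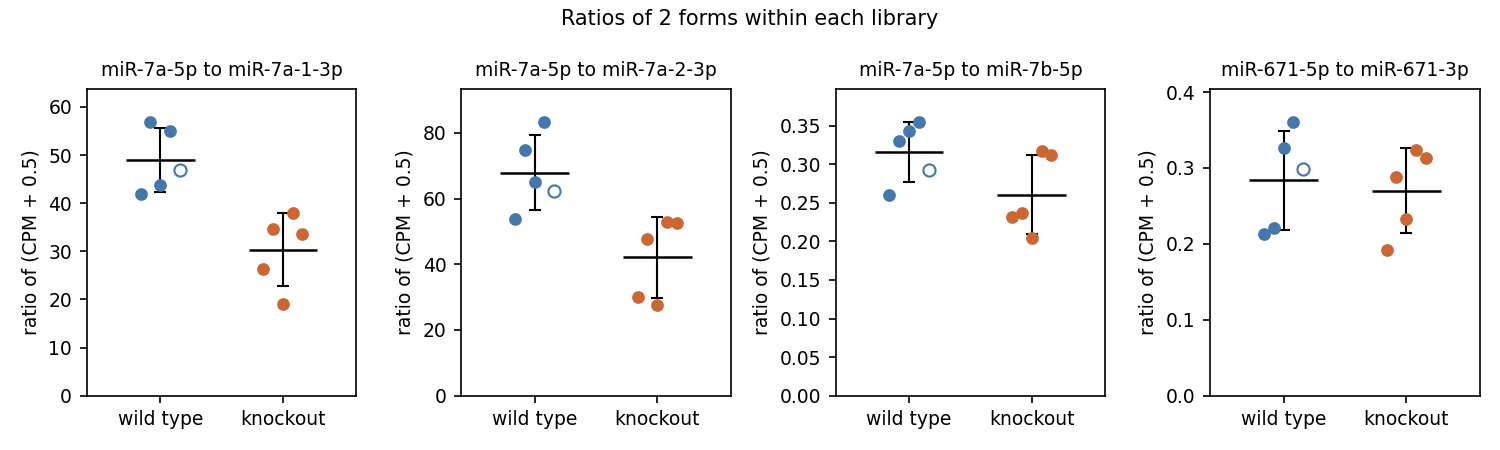
Ratio of the CPM + 0.5 of 2 miRNA forms within each library (vertical axes, from 0) in wild-type (blue) and knockout (orange) normoxic neurons; points are libraries, the open circle is wild-type replicate 5, and bars are the mean ± SD of the plotted ratios. The knockout points lie below all wild-type points for both ratios of miR-7a-5p to a passenger strand, and overlap with them for miR-7a-5p to miR-7b-5p and for miR-671-5p to miR-671-3p.

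Neither strand of miR-671, the miRNA that directs the cutting of ciRS-7, differed beyond its spread. The level of miR-671-5p was 6.30, 6.25, 6.69, 8.88 and 6.42 CPM in wild-type replicates and 5.41, 7.39, 6.82, 8.60 and 8.01 CPM in knockout replicates 1 to 5 (17 to 92 reads per library). The groups overlapped throughout, with a log2 difference of 0.06 (95% interval -0.30 to 0.42; limma adjusted p 0.990) that was 0.04 without wild-type replicate 5. The level of miR-671-3p was higher than that of miR-671-5p, at 26.3 ± 4.42 CPM with ciRS-7 and 28.5 ± 1.99 CPM without it (SD, n = 5), with a log2 difference of 0.13 (-0.15 to 0.40), or 0.08 without that library. Over all sets with a library left out, the miR-671-3p difference ran from 0.06 to 0.20. Within libraries the ratio of miR-671-5p to miR-671-3p, again of CPM + 0.5, was 0.213 to 0.361 in wild type and 0.192 to 0.324 in knockout (exact permutation p 0.706).

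The same genotypes after OGD gave differences of -0.39 for miR-7a-5p (SE 0.10, limma adjusted p 0.272) and -0.10 for miR-7b-5p (SE 0.10, adjusted p 0.881). The mean level of miR-7a-5p there was 5858 ± 764 CPM with ciRS-7 and 4451 ± 503 CPM without it (SD, n = 5). The knockout effect in normoxia minus that after OGD was -0.23 for miR-7a-5p (SE 0.19, p 0.238) and -0.24 for miR-7b-5p (SE 0.15, p 0.134). With a normoxic library left out, these values ran from -0.34 to -0.12 and from -0.31 to -0.19. In limma over all 20 libraries with Benjamini-Hochberg adjustment, 0 of 1481 features (0%) had such a difference between treatments at an adjusted p under 0.05, and 74 (5%) had an unadjusted p under 0.05. A different size of the knockout effect in normoxia was therefore not shown for any feature.

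Across all 1481 features, limma with Benjamini-Hochberg adjustment called none in normoxia (0%). The smallest adjusted p was 0.838, that of miR-7a-5p and of the rare features miR-6391, miR-3075-5p and miR-1188-3p. At an unadjusted p under 0.05 there were 47 features (3.17%), of which 34 were higher (2.3%) and 13 lower (0.878%) in knockout. limma voom, which weights each value by its depth, likewise called 0, with 40 features at an unadjusted p under 0.05. Among the 403 features at an average of 3 or more on the log2(CPM + 0.5) scale, only miR-7a-5p, miR-7b-5p and miR-497a-5p had an unadjusted p under 0.05 (0.744%). Without wild-type replicate 5 the counts were 0 called, 89 features (6.01%) at an unadjusted p under 0.05, and 12 of the 403 (2.98%).

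The precision of the abundant features bounds what could have gone unseen. Among the 403, the median log2 difference was 0.02 and the median size of the difference 0.07, and 238 were higher and 165 lower in knockout. The median was -0.0092 without wild-type replicate 5, so its sign rested on that library. For 365 of them (90.6%) the 95% interval of the difference lay within 1.5-fold in either direction, and for 390 (96.8%) within 2-fold. The 74 features with a mean log2 level of at least 10 lay between -0.15 (miR-151-3p) and 0.19 (miR-181a-1-3p), apart from miR-7a-5p at -0.62 and miR-7b-5p at -0.33. With wild-type replicate 5 left out, the other 72 lay between -0.17 (miR-20a-5p) and 0.16 (miR-543-3p).

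**Figure D3:**
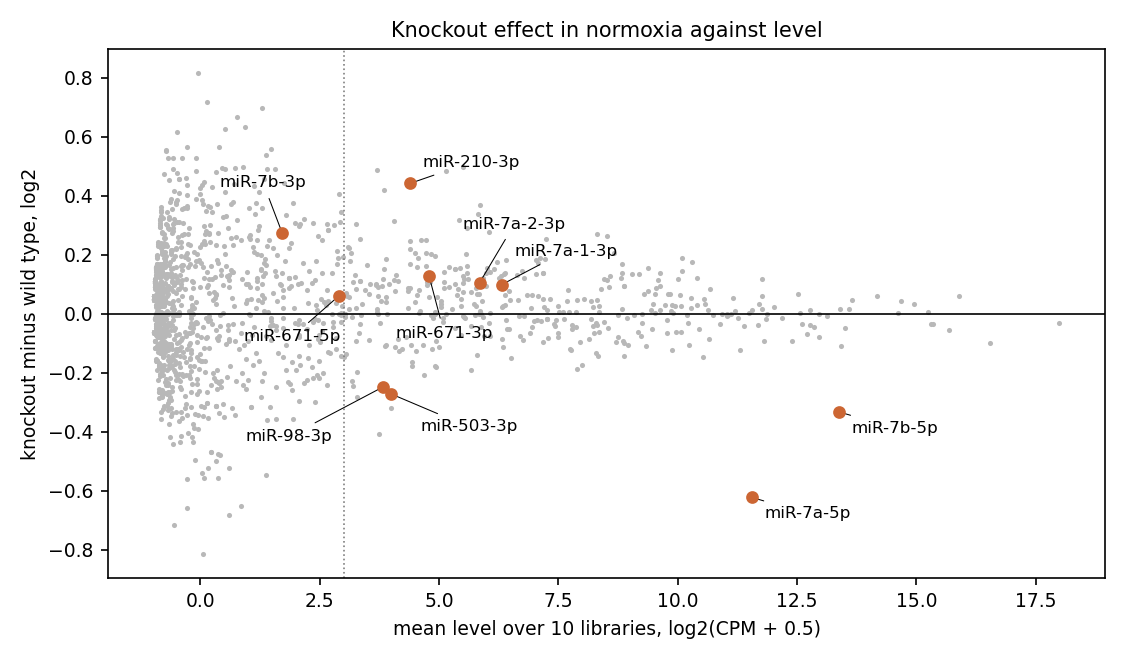
Log2 difference between knockout and wild type (vertical axis) against the mean log2(CPM + 0.5) over the 10 normoxic libraries (horizontal axis) for 1481 features; the dotted line marks a mean of 3, and 10 named features are orange. The spread narrows with level, and miR-7a-5p (-0.62) and miR-7b-5p (-0.33) lie below the other abundant features.

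Besides the miR-7 guide strands, the features lower in knockout with the smallest p were mostly of low level. The groups did not overlap for 2 of the 403 abundant features (0.496%), miR-503-3p and miR-98-3p, which are shown for that reason with their seeds in capitals:
miR-503-3p: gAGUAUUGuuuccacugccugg
miR-98-3p: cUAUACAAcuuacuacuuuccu
Both are passenger strands from precursors on the X chromosome, miR-503 (chrX:53053984-53054054, minus strand) outside annotated genes and miR-98, of the let-7 family, in an intron of Huwe1 (chrX:151913214-151913321, plus strand). The level of miR-503-3p was 15.3, 16, 17.1, 17.4 and 19.6 CPM in wild-type replicates and 15.2, 14.7, 11.6, 15.2 and 13.7 CPM in knockout replicates 1 to 5. The gap between the groups was small beside their ranges, since wild-type replicate 1 and knockout replicates 1 and 4 were nearly level. For miR-98-3p the values were 14.98, 14.1, 15.1, 16.8 and 14.4 CPM in wild-type libraries, all above the 11.9, 13.7, 12.3, 13.4 and 11.8 CPM of the knockout libraries. The log2 differences were -0.27 for miR-503-3p and -0.25 for miR-98-3p (SE 0.13 and 0.12, limma adjusted p 0.984 for both). If the groups were equal, 5 against 5 libraries would separate fully, in either direction, with a probability of 0.0079. The share seen here (0.496%) was below that, so the count of 2 is no result about these features. It became 0 when libraries were thinned to equal depth, 4 without wild-type replicate 1, knockout replicate 1 or knockout replicate 5, and 6 without wild-type replicate 5.

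Of the other features named by the smallest p and lower in knockout, miR-877-5p, spliced from an intron of Abcf1, was at 15.2 ± 2.64 CPM with ciRS-7 and 11.6 ± 3.16 CPM without it (log2 difference -0.41). This was -0.31 without wild-type replicate 5. The differences of miR-1947-5p, miR-183-5p, miR-486a-3p, miR-182-5p and miR-744-5p ran from -0.28 to -0.11. Of these, miR-182-5p and miR-183-5p come from neighbouring precursors on chromosome 6 and are known from sensory cells. With a library left out, their differences ran from -0.26 to -0.11 and from -0.25 to -0.10. Knockout replicates 1 and 4 were the lowest libraries for both: miR-182-5p was at 183 and 180 CPM there against 227 to 278 CPM in wild type, while the other knockout libraries were at 233 to 272 CPM.

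In the other direction, miR-497a-5p, a member of the miR-15/16 seed family, was at 43.3 ± 7.18 CPM with ciRS-7 and 52.8 ± 6.94 CPM without it (SD, n = 5; log2 difference 0.29, limma p 0.0495, adjusted p 0.984). Without wild-type replicate 5, which was the lowest library at 34.4 CPM, it was 0.21 (p 0.113). The others, miR-345-5p, miR-154-3p, miR-151-5p, miR-331-5p, miR-3071-3p, miR-210-3p, miR-374b-5p, miR-124-5p and miR-3059-5p, had differences of 0.16 to 0.44. Several of these rested on wild-type replicate 5: without it, that of miR-124-5p, the passenger strand of the neuronal miR-124, was 0.10 in place of 0.26, that of miR-374b-5p 0.10 in place of 0.21, and that of miR-154-3p 0.18 in place of 0.32. For miR-345-5p the value without that library was 0.26 beside 0.25 with it. Other libraries mattered too: with any library left out, miR-151-5p ran from 0.16 to 0.35 and miR-331-5p from 0.15 to 0.33.

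Among the features with a mean log2 level under 3, the groups did not overlap for 6 of 1078 (0.557%), 3 higher and 3 lower in knockout. These were miR-412-3p, miR-6391 and miR-7027-5p, with 0 to 4 reads in every library, and, lower in knockout, miR-3075-5p, miR-3087-3p and miR-5615-3p, with 0 to 10 reads. For miR-7027-5p all 5 wild-type libraries had 0 reads and the knockout libraries 1, 1, 2, 4 and 1, so both groups were near or under the floor of 3 reads and no fold is given. As for the abundant features, the share of 0.557% was below the probability of 0.0079 under equal groups.

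The 10 most abundant features, which took 66.1% to 69.3% of CPM in wild-type and 66.8% to 68.4% in knockout libraries, differed by -0.10 to 0.06 on the log2 scale. The most abundant was miR-9-5p, a miRNA of neural progenitors and neurons, at 229668 to 300915 CPM with ciRS-7 and 246045 to 264354 CPM without it. Its difference was -0.03, or 0.01 without wild-type replicate 1 and -0.08 without wild-type replicate 5. That of miR-99a-5p was -0.10, or -0.05 without wild-type replicate 5. The let-7 members among them, let-7i-5p, let-7g-5p, let-7f-5p and let-7c-5p, lay between -0.06 and 0.04. With wild-type replicate 5 left out they lay between -0.10 (let-7g-5p) and 0.03 (let-7c-5p). For the neuronal miR-128-3p (0.06, or 0.10 without wild-type replicate 5), miR-9b-3p (0.0050), miR-125b-5p (0.03) and miR-26a-5p (0.0012) the sign turned with the scaling or with the library left out, so no direction is given. The annotated positions of miR-9b-3p lie on the strand opposite to miR-9-5p at the same loci, and the strand setting of the counting is not given in the sources used here.

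In each list of related miRNAs, limma called 0 members over all features, as it did for the whole table. In the list of the 7 miR-7 and miR-671 forms, 2 members were lower at an unadjusted p under 0.05 (0.878% of all features were) and the median log2 difference was 0.10, beside 0.03 over all 1481 features. With wild-type replicate 5 left out these medians were 0.04 and 0.03. That list was chosen with these results known and is no independent evidence. The 11 neuron-enriched features, with the guide strands of miR-124, miR-128, miR-9, miR-137 and miR-218 among them, had 0 members at an unadjusted p under 0.05, where 3.17% of all features had one, so the count is near the background. Their median was 0.06, or 0.01 when wild-type replicate 5 was left out. Their summed level was 333181 to 419178 CPM with ciRS-7 and 338873 to 381096 CPM without it. Within that list miR-124-3p was at 2739 to 4107 CPM in wild type and 3209 to 4075 CPM in knockout libraries (log2 difference 0.12), miR-137-3p had the highest difference (0.14) and miR-129-5p the lowest (-0.11). Wild-type replicate 5 was the lowest library for miR-124-3p and miR-137-3p, and without it their differences were 0.04 and 0.01.

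The 5 activity-regulated features, miR-132, miR-212 and miR-134 forms that follow neuronal firing, had a median of -0.06, with values from -0.12 (miR-134-5p) to 0.02 (miR-212-3p). The 9 let-7 guide features, abundant in differentiated neurons, had a median of 0.01 and ranged from -0.06 to 0.07. The sign of that median turned without wild-type replicate 5 (-0.036). The 6 features of the miR-17-92 cluster, linked to dividing progenitors, had a median of 0.10, which was -0.0045 without wild-type replicate 5. The highest in that list was miR-19a-3p at 0.28, or 0.18 without that library. Wild-type replicate 5 had the lowest summed level of this cluster, 2359.6 CPM against 3988 to 4659 CPM in the other wild-type and 2981 to 4582 CPM in the knockout libraries.

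The Mirg cluster, a large imprinted miRNA cluster on chromosome 12 that is active in neurons, had 74 measured features with a median of 0.03, which was 0.0081 without wild-type replicate 5. At an unadjusted p under 0.05, 2 were higher and 2 lower, beside 2.3% and 0.878% of all features. Its extremes were rare features: miR-668-5p (0.63, 1 to 12 reads per library) and miR-3072-5p (0.43, or 0.23 without wild-type replicate 5) were highest, and miR-1193-5p (-0.39, 1 to 8 reads) was lowest. For miR-494-5p, with 0 to 2 reads per wild-type library and 0 in each knockout library, no fold is given. The low-oxygen marker miR-210-3p, which is induced by hypoxia, was at 19.1, 16.6, 28.7, 14.4 and 12.8 CPM in wild-type replicates and 22.4, 15.9, 47.7, 19.6 and 24.1 CPM in knockout replicates. The groups overlapped, with a log2 difference of 0.44 (SE 0.27, limma adjusted p 0.984) that was 0.20 without knockout replicate 3. Its passenger strand, miR-210-5p, did not exceed 6 reads per library.

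The summed levels of markers of other cell types overlapped between the genotypes, and their part in the results was not tested. The oligodendrocyte list (miR-219a forms and miR-338-3p, 3 features) summed to 5.86 to 12.0 CPM with ciRS-7 and 7.74 to 11.8 CPM without it. The endothelial list (both strands of miR-126a) summed to 310 to 387 and 314 to 393 CPM. The microglia and white blood cell list summed to 128 to 138 and 116 to 144 CPM, nearly all of it miR-146a-5p. Its defining members were near the floor, with miR-142a-3p at 0.533 ± 0.322 and 0.694 ± 0.280 CPM and miR-223-3p at 0 to 2 reads per library. The list of smooth muscle, pericyte and fibroblast markers (6 features) summed to 65.0 to 101 CPM with ciRS-7 and 70.6 to 115 CPM without it. All 6 of its members had a higher mean log2 level in knockout, with a median difference of 0.25 that was 0.11 without wild-type replicate 5. Over all 1481 features, 821 were higher in knockout, and only 2 of the 6 members reached a mean log2 level of 3. Of red blood cell markers, miR-451a was at 1.01 ± 0.938 CPM with ciRS-7, with its highest value in replicate 5, and 0.987 ± 0.419 CPM without it (SD, n = 5). No member of these lists had an unadjusted p under 0.05, a share near the 3.17% of all features. Of the neuron-enriched list, miR-128-3p, miR-9-5p and miR-124-3p were at the levels given above, and miR-9-5p is a miRNA of neural progenitors too. Other members of that list, miR-153-3p, miR-138-5p and miR-129-1-3p, had lower mean levels than the endothelial miR-126a-3p in both genotypes. The share of neurons in the cultures was not tested.

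The deposited values themselves gave a different count. In that table the highest and lowest value of each feature within each group had been drawn towards the others, which narrows the spread the test relies on. The same limma test on those values called 33 of 1481 features (2.23%), 27 higher and 6 lower in knockout. Only 1 of them, miR-7a-5p (adjusted p 0.0115), had a mean log2 level of at least 3. The other 32 had at most 1.3 reads per library on average. From the recovered reads, 15 of the 33 had an unadjusted p under 0.05, and 1 had groups that did not overlap. With the extremes restored but the deposited scale kept, 1 feature was called, miR-7027-5p (adjusted p 0.0190), which is the feature with 0 wild-type and 1 to 4 knockout reads described above.

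**Figure D4:**
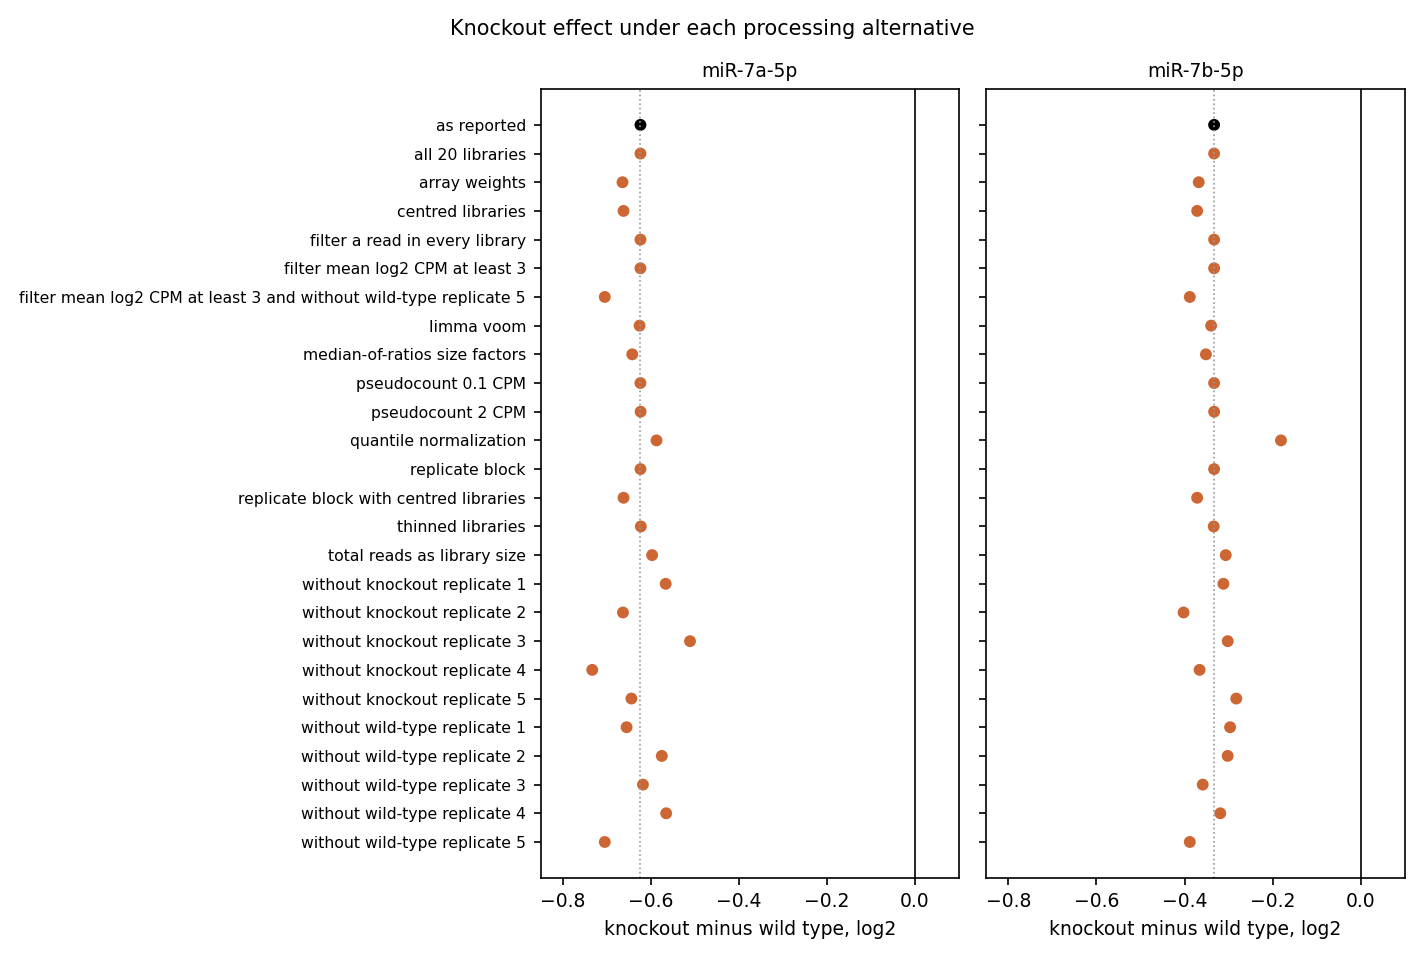
Log2 difference between knockout and wild type (horizontal axes) of miR-7a-5p and miR-7b-5p as reported (black) and under each processing alternative made from reads (orange); the dotted line repeats the reported value and the solid line marks 0. Every value lies below 0, from -0.73 to -0.51 for miR-7a-5p and from -0.40 to -0.18 for miR-7b-5p.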

How the data were processed

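Per the labels' protocols, libraries of small RNA were prepared with a NEBNext kit and selected by size. The genome build mm10 is named in the submitters' processing notes; the aligner, miRBase release and counting rule are not given in the sources used here. The authors deposited 6 tables of pairs of groups, described as log CPM. The table used here reached 35.9, and no log2 CPM can exceed 19.9. Its deposited values were treated as a score. From the values, each score was an integer read count multiplied by a factor of its library and raised to a power of 0.108, after which the extremes of each feature and group of 5 were limited at the quantiles 0.16 and 0.84. Undoing both gave whole reads for 100% of values (within 0.05; largest distance 5.2e-08; 74.7% without restoring the extremes). Recovered reads agreed across tables in all 59070 comparisons.

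CPM used the authors' library factors (0.923 to 1.06 times the total reads). limma 3.58.1 (R 4.3.3; lmFit, eBayes with trend) was run on log2(CPM + 0.5) of the 10 libraries, without covariates, two-sided, with Benjamini-Hochberg adjustment over 1481 features and a threshold of 0.05. Log2 differences on this scale understate changes of rare features. Ratios were taken of CPM + 0.5 and tested on log2 values with exact permutation tests (scipy 1.17.1). Negative binomial count models were not used because the deposited unit is a score; limma voom on the recovered reads was an alternative. The recovery of reads and the limma fit of knockout against wild type were tested on simulated data. In 3 simulations per fold, 200 features were changed at a dispersion set to 0.05, which was not estimated from these data. The fit recovered 0% of 1.25-fold, 12.3% of 1.5-fold and 88.2% of 2-fold changes. No 2 replicates matched within sampling noise (lowest chi-square per degree of freedom 34.8).

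Named features were the 7 miR-7 and miR-671 forms, called features, those with the 10 smallest p per direction among features with a mean log2 of at least 3, and the 10 most abundant. Other lists are given by counts. Members, lists and tests were chosen with earlier results of these data known. RefSeq sequences were matched by name (32 of 35 named features). Motifs were searched on both strands in GENCODE transcripts of GRCm38, the build of mm10.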

Additional observations from a re-analysis of the deposited data

Results flagged for a closer look

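In 80 groups of 5 libraries tested for a sample far from the others, 4 values stood apart; chance gives about 1 in 20. The level of miR-671-5p was 8.88 CPM in wild-type replicate 4 and 6.25 to 6.69 CPM in the other wild-type libraries. The level of miR-151-5p was 126 CPM in knockout replicate 5 and 171 to 183 CPM in the other knockout libraries. The level of miR-210-3p was 47.7 CPM in knockout replicate 3 and 15.9 to 24.1 CPM in the others. The level of miR-9-5p was 246045 CPM in knockout replicate 4 and 259940 to 264354 CPM in the others. The causes were not tested.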

How the results depend on the processing

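The number of called features was 0 in 25 of 27 alternatives (normalizations, filters, pseudocounts, thinning, weights, voom, and each library left out); with the values as deposited it was 33, and with extremes restored but the deposited scale kept, 1. The counts at an unadjusted p under 0.05 were 89 without wild-type replicate 5, 81 with array weights, 72 without wild-type replicate 1, and 6 with the spread estimated over all 20 libraries. Scaling by total reads, and the filter at a mean log2 of 3 combined with leaving out wild-type replicate 5, were chosen after seeing the data; both called 0. The miR-7a-5p difference kept its sign in all 27 and passed on the deposited values alone. The count of features whose groups do not overlap was 0 after thinning and 2 to 6 with a library left out. With a library left out, the ratio difference of miR-7b-5p to miR-7b-3p ran from -0.70 to -0.48, and it was -0.40 after thinning. That of miR-671-5p to miR-671-3p was 0.014 after thinning and ran from -0.16 to 0.048 with a library left out.

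Signs of differences near 0 turned as follows; the cause was not tested. For miR-9b-3p the value was -0.059 with array weights, -0.034 with centred libraries, -0.032 on the deposited values, -0.0088 with voom, -0.014 with median-of-ratios factors, -0.034 with the replicate block and centring, -0.065 with the filter and without wild-type replicate 5, and -0.065 to 0.055 with a library left out. For miR-125b-5p it was -0.035 with array weights, -0.0065 with centring, -0.0065 with the block and centring, -0.050 with the filter and without wild-type replicate 5, and -0.050 to 0.12 with a library left out. For miR-26a-5p it was -0.028 with array weights, -0.037 with centring, -0.024 with the filter and without wild-type replicate 5, -0.0057 with voom, -0.017 with median-of-ratios factors, -0.020 with quantile normalization, -0.037 with the block and centring, and -0.030 to 0.039 with a library left out. With a library left out, miR-671-5p ran from -0.0013 to 0.15, miR-9-5p from -0.084 to 0.014 and miR-128-3p from -0.038 to 0.19. The difference between treatments for miR-7a-2-3p was -0.069 with centring, -0.0093 with voom and -0.055 to 0.073 with a library left out.

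From the correlations it could not be told whether same-numbered libraries form pairs. Same-numbered deviations correlated at -0.31 to 0.59, over 0.1 for 2 of 5 pairs (0.42 for replicate 1 and 0.59 for replicate 3). Of 10 libraries, 3 correlated best with their own number. With the replicate block, 0 features were called and 50 had an unadjusted p under 0.05. For miR-7a-5p the block gave a limma p of 0.00043 (adjusted p 0.641), beside 0.0013 without it. For miR-7b-5p the limma p was 0.0016 (adjusted p 0.967) beside 0.0079. It rose with the block for miR-503-3p (0.077 beside 0.051) and miR-98-3p (0.080 beside 0.056). A paired exact test of the ratios was not run.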
